A study of Mus musculus with 8 samples.

Results

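The transcripts described here are 8 that peripheral satellite glia are known for, Fabp7, Apoe, Sox10, Sparc, Dbi, Ednrb, Gpm6b and Ptn, measured in cells that had been classed as neurons. They were chosen by name, as a list of glial transcripts, with earlier results of these data known. All 8 are among the 19224 genes measured in 1303 neurons of the stellate ganglia, the sympathetic ganglia that innervate the heart and forelimbs. The mice were male C57BL6/J animals aged 8 to 10 weeks, injected with adeno-associated viruses, GFP in the heart and tdTomato in the front paws. All mice received the same treatment, so there is 1 condition and no untreated group, and each mouse is a replicate. The protocol describes 16 left and right ganglia as combined for digestion, after which single cells were captured on the 10x Genomics Chromium, where a unique molecular identifier (UMI) lets every RNA molecule be counted once. The 8 subtypes are the clusters of these same neurons as the authors named them: noradrenergic NA1a, NA1b, NA1c, NA2 and NA3, cholinergic Ach1 and Ach2, and Glut.

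Satellite glia wrap the cell body of each sympathetic neuron in a thin sheath, so that neuron and sheath are hard to separate when a ganglion is dissociated. They arise from the neural crest, as Schwann cells do, and both lineages depend on the transcription factor SOX10. Fabp7, Apoe and Dbi encode carriers of lipids: a brain-type fatty acid binding protein, apolipoprotein E, and the acyl-CoA binding protein. Ednrb encodes the endothelin receptor type B. Sparc encodes a secreted matrix protein, Ptn the growth factor pleiotrophin, and Gpm6b a membrane glycoprotein of the proteolipid family.

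5 of the 8 mouse names in the data, with 1002 neurons, each matched 1 sample and are replicates 1 to 5. The other names, with 301 neurons, were not matched and enter only values pooled over all neurons. The neurons of replicates 1 to 5 held 916296 to 1196621 UMIs per mouse. A level is the mean of UMIs per 10000 over the neurons of a subtype in 1 mouse, and its SD is over mice. The median depth of a neuron was 6773 UMIs in NA3, 6524.5 in NA1a, between 2461 and 4414.5 in NA1b, NA1c, NA2, Ach2 and Glut, and 2206.5 in Ach1. The libraries of replicates 1 to 5 shared 21 cell barcodes, each found in 2 to 5 libraries, on 73 neurons, of which 55 are NA2, 15 Ach2 and 3 Glut, and none NA3 or Ach1. Some differences from NA2 are therefore also given without these neurons. Replicate 2 then kept 6 NA2 neurons, below the minimum of 10 in the fits, so its NA2 neurons left the fit. Replicate 1 kept 10 of 27. The defining transcripts of neurons were present in every subtype: a list of 16 neuronal genes summed to a mean of 102 UMIs per 10000 in NA3, 209 in Ach1 and between 183 and 290 in the other subtypes, pooled over neurons.

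The genes lie on separate chromosomes (GENCODE vM21, GRCm38): Fabp7 at chr10:57784881-57788450 on the plus strand, Apoe at chr7:19696109-19699188, Sox10 at chr15:79154908-79165240, Sparc at chr11:55394500-55423183, Dbi at chr1:120113280-120121078, Ednrb at chr14:103814625-103844402 and Ptn at chr6:36714929-36810220 on the minus strand, and Gpm6b at chrX:166238911-166388988 on the plus strand. The RefSeq promoters of these genes (GRCm38.p6, windows of 300 bases around the start) were searched on both strands. The motifs were the core letters that SOX proteins bind, ACAAAG and ACAATG, and a TATA box, TATAAA. 7 of the 8 genes had promoters in the table, 10 in all, and Sox10 had none. The 3 promoters below are those of the genes whose promoters hold ACAAAG and, for contrast, of Fabp7, which holds none of the 3 motifs. Capitals mark a motif on either strand.
Apoe, chr7:19699139-19699438, minus strand: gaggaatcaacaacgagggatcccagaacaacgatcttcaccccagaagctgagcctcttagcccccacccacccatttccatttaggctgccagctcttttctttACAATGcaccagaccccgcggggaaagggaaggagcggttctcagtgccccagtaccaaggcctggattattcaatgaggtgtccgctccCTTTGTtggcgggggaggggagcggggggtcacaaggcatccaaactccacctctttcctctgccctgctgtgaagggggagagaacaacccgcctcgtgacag
Gpm6b, chrX:166238693-166238992, plus strand: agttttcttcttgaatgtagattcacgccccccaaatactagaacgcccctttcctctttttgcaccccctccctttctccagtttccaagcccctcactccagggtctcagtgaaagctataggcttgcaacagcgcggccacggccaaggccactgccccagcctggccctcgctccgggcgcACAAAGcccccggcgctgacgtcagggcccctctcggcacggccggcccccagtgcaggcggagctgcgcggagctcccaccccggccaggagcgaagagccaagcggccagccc
Fabp7, chr10:57784673-57784972, plus strand: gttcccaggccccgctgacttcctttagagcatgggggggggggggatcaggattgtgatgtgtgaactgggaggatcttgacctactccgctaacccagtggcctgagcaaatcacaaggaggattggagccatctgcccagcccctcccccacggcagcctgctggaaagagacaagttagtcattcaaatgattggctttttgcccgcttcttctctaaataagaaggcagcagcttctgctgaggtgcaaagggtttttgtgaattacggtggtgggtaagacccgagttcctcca
In the Apoe promoter the capitals are ACAATG and CTTTGT, the latter being ACAAAG on the other strand, and in the Gpm6b promoter ACAAAG. A further Apoe promoter held TATAAA, and the promoters of Sparc, Dbi, Ednrb and Ptn held none of these letters. Of all 32851 promoters of this length, 18.7% held ACAAAG, 12.6% ACAATG and 13.6% TATAAA, so a match is common and describes only these windows.

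NA3 carried the 8 transcripts at the levels shown in the plot of levels by mouse, and the carriers of lipids were the clearest. Apoe was measured at 151, 213, 311, 123 and 140 UMIs per 10000 in the NA3 neurons of replicates 1 to 5 (9, 23, 7, 14 and 39 neurons). In NA1a it was 5.24, 4.46, 4.84, 4.11 and 3.45, and in NA2 2.71, 3.58, 3.71, 2.37 and 2.15 in the same mice. Every NA3 value lay above every value of the NA1 subtypes, of NA2 and of Ach2.

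Fabp7 followed the same order, with 62.3, 69.8, 42.4, 27.5 and 52.4 UMIs per 10000 in NA3 and 1.70, 1.04, 0.398, 0.815 and 1.70 in NA1a. Dbi, which binds long-chain acyl-CoA, was 67.2, 94.5, 105, 34.6 and 50.2 in NA3 and 3.39, 2.90, 2.52, 2.31 and 3.66 in NA1a. For both genes the NA3 mice did not overlap with the mice of any other noradrenergic subtype, and replicate 4 was the lowest of the NA3 values.

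**Figure D1:**
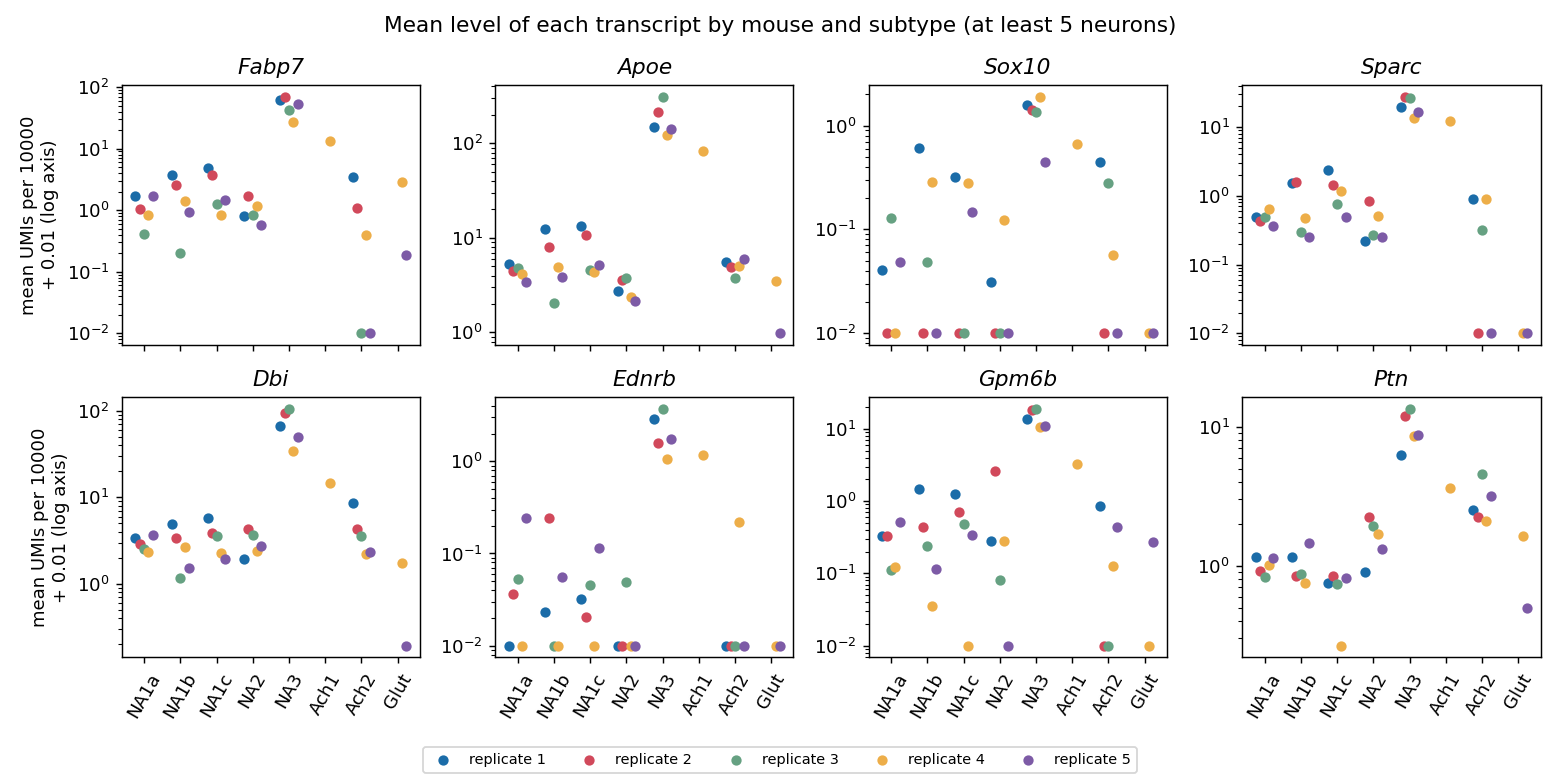
Mean UMIs per 10000 plus 0.01, on a log axis, of each transcript in each subtype, with 1 point for each mouse that had at least 5 neurons of the subtype and colours for replicates 1 to 5. By its mean NA3 is the highest subtype for all 8 transcripts, and Ach1, shown by replicate 4 alone, comes next for 7 of them, while Ptn of Ach1 lies within the range of Ach2.

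The secreted and membrane proteins showed the same separation. Sparc was 20.0, 27.7, 26.3, 13.5 and 16.5 UMIs per 10000 in NA3 of replicates 1 to 5, against 0.487, 0.427, 0.480, 0.629 and 0.349 in NA1a. Gpm6b was 13.9, 18.1, 18.8, 10.6 and 11.1 in NA3, against 0.316, 0.315, 0.102, 0.113 and 0.508 in NA1a. Ptn was 6.22, 11.9, 13.4, 8.51 and 8.74 in NA3, and its groups lay closer, since the mice of Ach2 reached up to 4.53.

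The regulator and the receptor were sparse everywhere. Sox10 was 1.56, 1.41, 1.35, 1.89 and 0.432 UMIs per 10000 in NA3, and 0.598, 0, 0.038, 0.275 and 0 in NA1b, so that replicate 5 of NA3 lay below replicate 1 of NA1b. Ednrb was 2.86, 1.57, 3.68, 1.05 and 1.75 in NA3 and at most 0.236 in any mouse of NA1a, NA1b, NA1c and NA2. Ednrb passed the filter on low values through NA3 alone, so that it had to differ, and Sox10 through 2 profiles of NA3 and 1 of NA1b. The number of the 8 that were called is therefore no support for the list.

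The comparison of NA3 with the other noradrenergic subtypes asked how steady these levels are over mice. Levels plus 0.1 were put on the log2 scale and fitted in limma with the mouse as a block, over mice with at least 10 neurons (3 mice for NA3, 5 for each other subtype), and 6185 genes passed a filter at a mean of 0.5. The subtypes are clusters of these same neurons, so the test measures steadiness between mice and is not independent evidence of a difference. All 8 transcripts were called higher in NA3 at an adjusted p below 0.05 against each of the 4 subtypes. Over all genes tested the share called higher was 7.29% against NA1a, 9.02% against NA1b, 11.1% against NA1c and 21.9% against NA2. The median log2 difference of the 8 was 4.64, 4.59, 4.03 and 4.79, while the median over all genes was -0.25, -0.27, -0.26 and 0.11.

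Against NA1b the log2 difference was 5.30 ± 0.59 (SE) for Gpm6b, 5.03 ± 0.39 for Fabp7, 4.94 ± 0.28 for Apoe, 4.66 ± 0.39 for Sparc and 4.52 ± 0.31 for Dbi. It was smaller for Ednrb (3.35 ± 0.42), Ptn (3.16 ± 0.32) and Sox10 (2.65 ± 0.50), of which Sox10 had the largest adjusted p (8.8e-05, limma). A pseudocount of 0.1 pulls the differences of Sox10 and Ednrb toward 0, since both were near 0 outside NA3. Ptn had its smallest difference against NA2 (2.56 ± 0.32), where it was 0.892, 2.24, 1.94, 1.67 and 1.31 UMIs per 10000 in replicates 1 to 5. Without the neurons of shared barcodes this difference was 2.70, and those of Apoe and Fabp7 against NA2 were 5.43 and 5.10, from 5.80 and 5.40 with them.

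With at least 5 neurons per profile, all 5 mice had NA3 neurons, and each of the 8 transcripts was higher in NA3 in 5 of 5 mice against each of the 4 subtypes. An exact two-sided sign-flip test over 5 mice gave p = 0.0625 for each, the smallest that 5 mice allow. The 3 unmatched mice, pooled over their 7 NA3 neurons, had 100 UMIs per 10000 of Apoe, 65.1 of Fabp7 and 88.2 of Dbi.

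**Figure D2:**
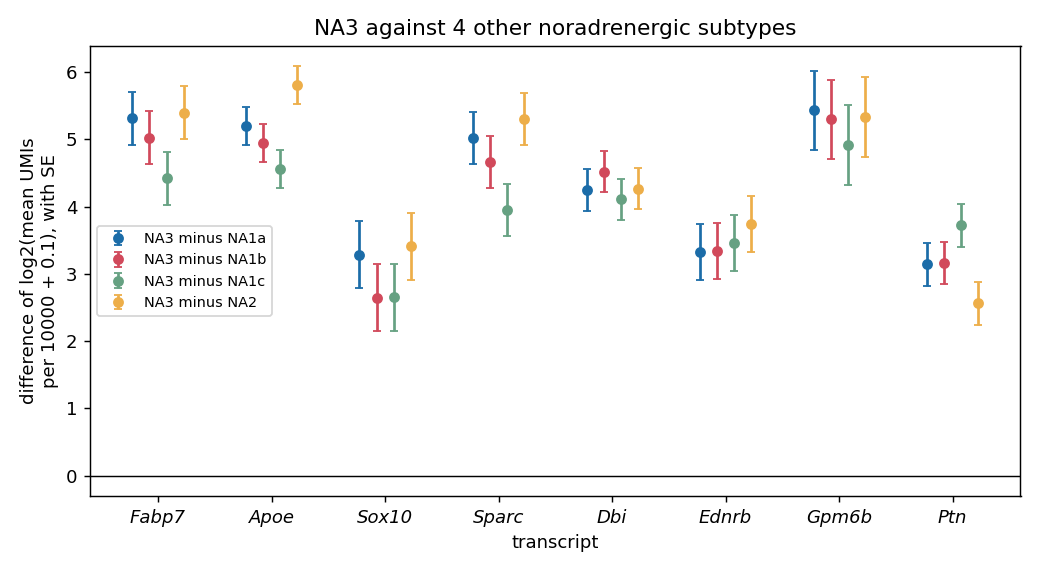
Difference of log2(mean UMIs per 10000 + 0.1) between NA3 and NA1a, NA1b, NA1c and NA2 for each transcript, with bars for the standard error from limma. All 32 differences lie above 0, from 2.56 to 5.80.

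Among the other noradrenergic subtypes the 8 transcripts were low, and few of them differed. None of the 8 passed the test between NA1a and NA1b, where 4.14% of all genes did, or between NA1b and NA1c, where 1.54% did. Sparc was lower in NA1a than in NA1c by 1.07 on the log2 scale (adjusted p = 0.0407, limma), where 5.68% of genes were called in either direction, and this call was lost in 10 of the 16 alternatives, including the removal of any 1 mouse.

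NA2 differed from NA1a, NA1b and NA1c in 48.6%, 56.3% and 59.9% of all genes, so that calls among the 8 transcripts there are below the background. Against NA1c, Apoe (1.24 ± 0.24), Fabp7 (0.97 ± 0.33) and Sparc (1.36 ± 0.32) were lower in NA2 and Ptn (-1.16 ± 0.27) was higher, each as a log2 difference of NA1c minus NA2. Without the neurons of shared barcodes the differences of Apoe (0.84), Sparc (1.27) and Ptn (-1.06) stayed called, while that of Fabp7, 0.65, did not pass (adjusted p = 0.101, limma). The Fabp7 call was also lost without replicate 1 (0.60, adjusted p = 0.141, limma), with no filter, with centring and without the mouse block. That of Ptn was lost after thinning each neuron to 2000 UMIs (-0.61, adjusted p = 0.248, limma), and that of Sparc with averaged natural logs (0.30, adjusted p = 0.0772, limma). Apoe was also called lower in NA2 than in NA1a (0.61 ± 0.24) and NA1b (0.86 ± 0.24), and neither call remained without those neurons, at 0.20 and 0.45. That setting also lost the NA2 profile of replicate 2, and the part of each change was not tested. Replicate 1 had the highest Apoe in NA1b and NA1c (12.4 and 13.5 UMIs per 10000), and the NA1b call was also lost without it (0.53, adjusted p = 0.0651, limma).

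Ach1 stood next to NA3 and rested on 1 library, since 55 of its 64 neurons came from replicate 4. There Apoe was 82.1 UMIs per 10000, Fabp7 13.4, Sparc 12.1 and Dbi 14.7 as means over neurons. With the UMIs of replicate 4 summed, Apoe made 1007 of 135426 UMIs in Ach1, or 74.4 per 10000 (exact 95% Poisson interval 69.8 to 79.1), against 140 (130 to 149) in the 14 NA3 neurons of the same library. These intervals cover counting error only, and with 1 library there is no test. By the same sums NA3 was 4.00 times Ach1 for Gpm6b, 2.77 times for Fabp7 and 2.69 times for Dbi, but 1.25 times for Sparc and 1.14 times for Ednrb, whose intervals overlap. As means over neurons the ratios were 3.30 for Gpm6b, 2.05 for Fabp7, 2.36 for Dbi and 1.12 for Sparc, and Ednrb was lower in NA3 (1.05) than in Ach1 (1.16 UMIs per 10000).

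Within replicate 4, Apoe made 62.7% of the summed level of the 8 in Ach1 and 55.8% in NA3, and Dbi made 11.2% and 15.7%. In NA3 of replicates 2 and 5 the share of Apoe was 48.7% and 49.9% and that of Dbi 21.6% and 17.8%, so the mice of NA3 differed among themselves by about as much, and no test was made. The few Ach1 neurons of the other matched mice, 3, 2, 1 and 1 in replicates 1, 2, 3 and 5, had a summed level of 49.7, 119, 31.6 and 67.9 UMIs per 10000 against 131 in replicate 4.

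Per neuron, at least 1 UMI of a transcript was found more often in NA3 than in the NA1 subtypes, NA2, Ach2 and Glut, while Ach1 was close for Apoe, Fabp7 and Dbi. Apoe was found in all 99 NA3 neurons and all 64 Ach1 neurons, but also in 42.3% of NA2 and 69.3% of NA1a neurons (median depths 2461 and 6524.5 UMIs), so that a UMI of Apoe alone does not set NA3 apart. Fabp7 was found in 90.9% of NA3 neurons (exact 95% interval 83.4 to 95.8), 90.6% of Ach1 neurons and 24.6% of NA2 neurons. Without the neurons of shared barcodes the NA2 shares were 46.7% for Apoe and 30.8% for Fabp7 (120 neurons). Sox10 was found in 42.4% of NA3 neurons (32.5 to 52.8), 15.6% of Ach1 and between 0 and 9.68% of the others. In Glut, 0 of 37 neurons had a UMI of Sox10, which by 3 counts of the total allows a share of neurons with a UMI of up to 8.11%, for counting error only.

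Thinning each neuron to 2000 UMIs, which left out 230 of 1303 neurons, brought Sox10 to 17.8% of 90 NA3 neurons and 13.2% of 38 Ach1 neurons. For Ednrb the shares were 23.3% and 23.7% in NA3 and Ach1, and for Fabp7 90.0% and 81.6%. A median of 7 of the 8 transcripts was found in an NA3 neuron, 5 in Ach1 and 1 to 3 in the other subtypes, and 6, 5 and 1 to 1.5 after thinning. At least 5 of the 8 were found in 86 of 99 NA3 neurons and 45 of 64 Ach1 neurons, against 0 to 8.06% of neurons elsewhere.

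**Figure D3:**
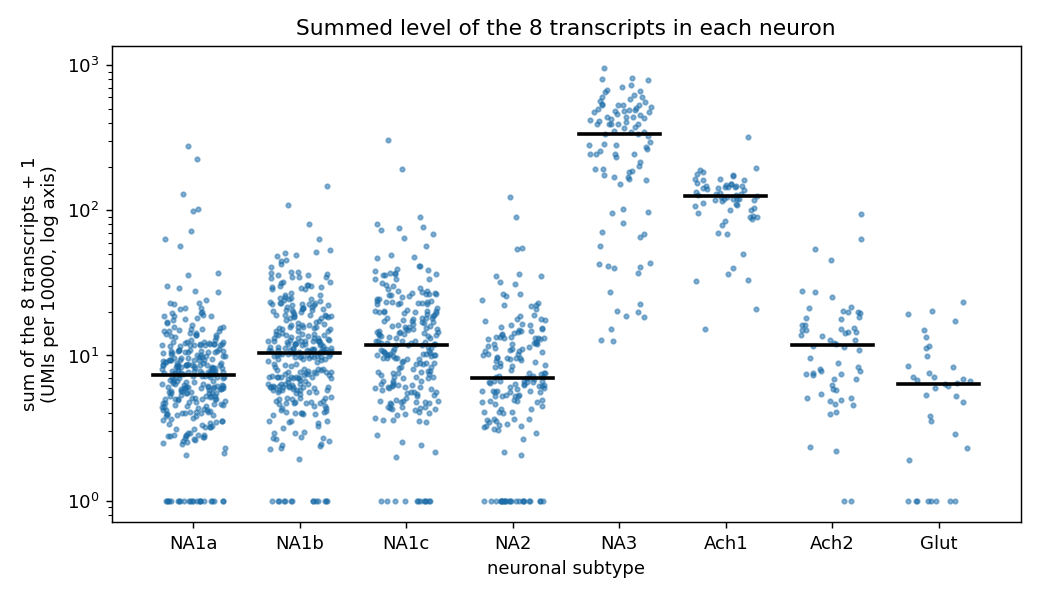
Summed level of the 8 transcripts plus 1 (UMIs per 10000, log axis) in each of the 1303 neurons by subtype, with a bar at the median. The NA3 median and quartiles are far above the subtypes other than Ach1, but its lowest neurons, at 11.7, reach their range. Ach1 forms a narrow band around 124, and its upper quartile, 147, lies close to the lower quartile of NA3, 162.

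Summed over the 8 transcripts, NA3 neurons spread widely, from 11.7 to 962 UMIs per 10000, with quartiles of 162, 333 and 489. Ach1 neurons were narrower, with quartiles of 97.8, 124 and 147. Within replicate 4 the quartiles were 20.8, 165 and 384 in NA3 and 107, 128 and 150 in Ach1. NA3 neurons at or below 50 UMIs per 10000 numbered 2, 0, 1, 6 and 6 in replicates 1 to 5. Outside NA3 and Ach1, 9 of 1140 neurons exceeded 100 UMIs per 10000, in NA1a, NA1b, NA1c and NA2, with 4 to 7 of the 8 transcripts found, and 4 of them came from matched mice, 1 each of replicates 1 to 4.

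Within NA3 the transcripts rose together from neuron to neuron. Pearson's r of the natural log values, over 99 neurons that share libraries, depth and a subtype defined on the same cells, averaged 0.57 over 28 pairs, from 0.09 (Sox10 and Ednrb) to 0.84 (Fabp7 and Dbi). Apoe had the highest mean r with the other 7 (0.69) and Sox10 the lowest (0.30). The mean was 0.31, 0.61 and 0.47 within replicates 2, 4 and 5, and 0.47 after thinning. Within single mice of other subtypes it reached 0.43 in NA2 of replicate 2 (14 neurons, 15 pairs) and 0.40 in NA1c of replicate 3 (20 neurons, 21 pairs). Both lay above NA3 of replicate 2 (28 pairs), but over unlike sets, since a transcript with no UMI gives no pair. In the rest the mean r lay between -0.07 and 0.18.

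In Ach1 the mean r was 0.13 over 64 neurons and 0.08 over the 55 of replicate 4, and the pair of Fabp7 and Apoe was the highest at 0.55. In the other subtypes the mean r lay between 0.04 (Glut, where 15 pairs could be computed) and 0.20 (NA1a), where most values are 0 and a weak correlation says little. These correlations are descriptions and carry no test.

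**Figure D4:**
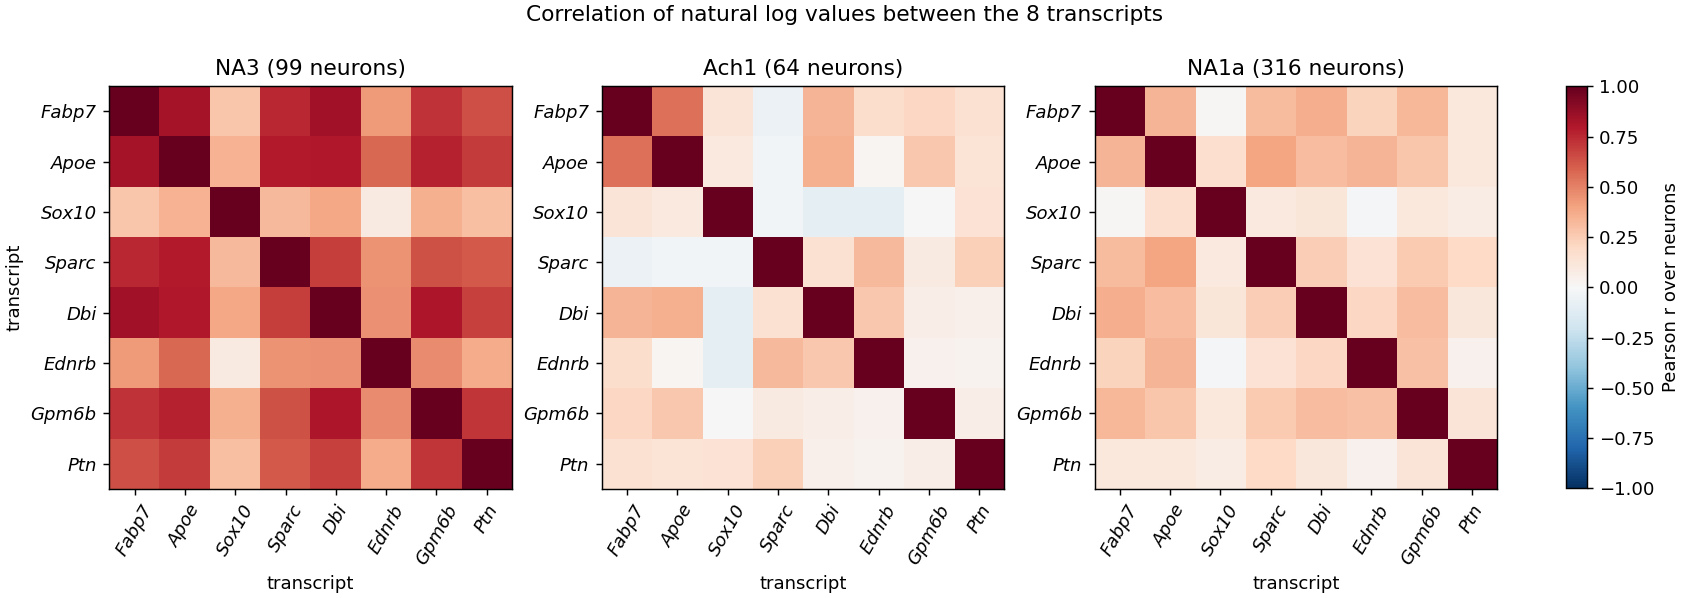
Pearson's r of natural log values for each pair of the 8 transcripts over the neurons of NA3, Ach1 and NA1a, from -1 (blue) to 1 (red). In NA3 26 of 28 pairs exceed 0.3, with Sox10 and Ednrb the weakest rows, and in Ach1 4 pairs do.

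The same was seen when NA3 neurons were divided by the sparse transcripts. NA3 neurons with a UMI of Ednrb (52) had a mean of 452 UMIs per 10000 of the other 7 transcripts, and those without (47) had 194, with the order the same in 4 of 4 mice that had at least 3 neurons of each kind. For Sox10 the values were 451 (42 neurons) and 241 (57), again in 4 of 4 mice. In replicate 2 the difference was small, 445 against 409 for Sox10 and 449 against 408 for Ednrb. Neurons with a UMI of Sox10 were also deeper, with a median of 11299 UMIs against 4730. So were those with a UMI of Ednrb, at 10805 against 4174. The part of depth in these differences was not tested.

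Depth moved with the summed level, and in opposite directions. Spearman's rho between a neuron's UMIs and its summed level was 0.51 in NA3 (99 neurons), -0.33 in Ach1 (64), -0.49 in NA1b (311) and -0.42 in NA1c (239), and -0.02 in NA1a (316). Over the NA3 neurons of replicates 1 to 5 the median depth was 8790, 14025, 9874, 4209 and 4711 UMIs. The mean summed level was 325, 438, 522, 221 and 281. Replicates 2 and 3 were the highest and replicates 4 and 5 the lowest in both. The part of depth in the summed level was not tested. After thinning, 7 of the 8 transcripts were tested and called in each NA3 comparison, and Sox10 did not pass the filter. Without the deepest 10% of neurons all 8 stayed called, but only replicates 4 and 5 kept an NA3 profile. Replicate 2, the deepest NA3 mouse, left this fit.

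**Figure D5:**
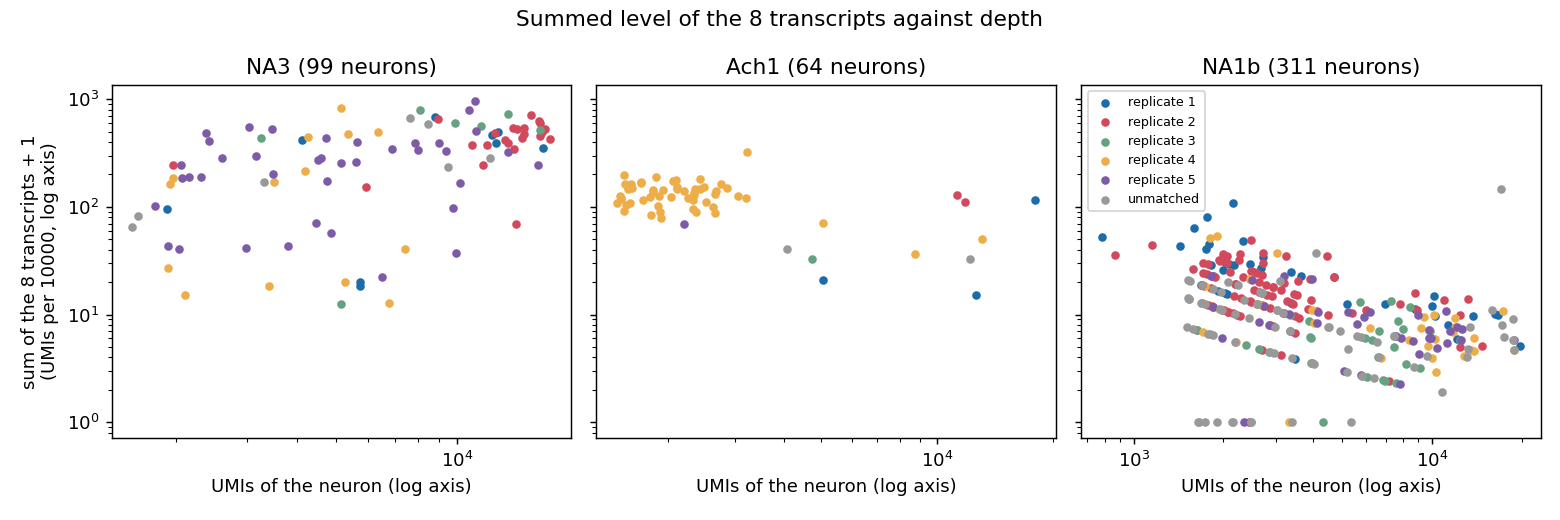
Summed level of the 8 transcripts plus 1 (UMIs per 10000) against the UMIs of the neuron, both on log axes, for NA3, Ach1 and NA1b, coloured by mouse. The sum rises with depth in NA3, the Ach1 neurons of replicate 4 form 1 shallow cluster, and in NA1b the sum falls with depth along steps of single UMIs.

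Other transcripts of glia and of other cell types were examined beside the 8, from lists chosen by name with earlier results known. Of 18 further satellite glia genes, 13 were tested, and 13, 12, 12 and 11 were called higher in NA3 than in NA1a, NA1b, NA1c and NA2, with none lower. Of these 13, 8 passed the filter only with the NA3 profiles and so had to differ, and the counts are no support for the list. Against NA1b the genes called included Ttyh1, a chloride channel gene (4.27 ± 0.48), Cdh19, a cadherin of the Schwann cell lineage (4.22 ± 0.47), and S100b, a calcium-binding protein of glia (3.91 ± 0.45). Each of the genes just named passed the filter only with the NA3 profiles. The 18 listed genes summed to 36.4 to 47.4 UMIs per 10000 over the 5 NA3 mice and to 18.3 in Ach1 of replicate 4. Over the mice of NA1a, NA1b, NA1c and NA2 this sum was 1.36 to 5.98.

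Markers of other cells moved as well. Of 10 genes of myelinating Schwann cells, 4 were tested and all 4 were higher in NA3 than in NA1b, among them Mal (4.83 ± 0.46) and Mbp, myelin basic protein (2.83 ± 0.44). Against NA2, 3 of the 4 were called. Over all genes the share called higher was 9.02% against NA1b and 21.9% against NA2. Pooled over neurons the list summed to 15.3 UMIs per 10000 in NA3, 5.22 in Ach2 and 5.47 in Glut. By mouse it summed to 10.5 to 19.7 UMIs per 10000 in NA3, 10.3 in Ach1 of replicate 4 and 1.74 to 3.75 in the other noradrenergic subtypes. Of 7 fibroblast genes, 4 were tested and 4 were higher in NA3 than in NA1b, including Dcn, which encodes decorin (3.54 ± 0.39), Col1a2 (2.84 ± 0.49) and Gsn (2.71 ± 0.30). The list summed to 50.1 in Ach1 of replicate 4 and 16.3 to 43.0 over the NA3 mice. In each of these lists 2 of the 4 genes, Mal and Col1a2 among them, passed the filter only with the NA3 profiles and so had to differ.

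Of 9 immune genes, only Lyz2 was tested, and it was higher in NA3 than in NA1b (1.27 ± 0.46, adjusted p = 0.0406, limma), NA1a and NA2 (1.58) but was not called against NA1c (-0.24), and it passed the filter only with the NA3 profiles. The immune list summed to 10.6 in Ach1 of replicate 4 and 0.48 to 4.75 over the NA3 mice. The 1 endothelial gene of 7 that was tested was called lower in NA3 than in NA1a and NA2 and did not pass against NA1b and NA1c, and none of the 6 smooth muscle genes passed the filter. Their sums were at most 1.71 and 6.38 UMIs per 10000 in any NA3 mouse. The part of RNA from glia or other cells, or of cells captured together, in the levels of the 8 transcripts was not tested.

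The neuronal genes went the other way in NA3. Of 16 tested, 13, 15, 16 and 15 were called lower in NA3 than in NA1a, NA1b, NA1c and NA2, and 1 was higher than in NA2. Over all 6185 genes tested, 731, 842, 972 and 1072 were called lower in NA3 in the same comparisons. Against NA1b, Elavl4, a neuronal RNA-binding protein, fell by 1.28 on the log2 scale, Syt1, synaptotagmin 1, fell by 1.18, and Pcsk1n, a secretory granule protein, fell by 1.16. Levels are shares of a neuron's UMIs, so the levels of different genes are not independent of each other. Within NA3 the summed level of the 8 had Spearman's rho of -0.37 with the neuronal list over 99 neurons. The rho was 0.53 with the further satellite glia list, 0.57 with the Schwann cell list and 0.09 with the fibroblast list.

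Beyond the lists, the 10 genes whose level over 26 profiles of mouse and subtype was most like the mean of the 8 had Pearson's r from 0.917 to 0.951. They were Gm2115, Rarres2, Art3, Ptprz1, Ctnna1, Cebpd, Fmo1, Lpar1, Fxyd1 and Igfbp4, and none is in the marker lists. Rarres2, which encodes the adipokine chemerin, had a mean of 4.20 UMIs per 10000 over the NA3 mice, 2.00 in Ach1 of replicate 4 and 0.241 in NA1b. Fxyd1, which encodes phospholemman, a regulator of the sodium pump, had 5.77, 2.75 and 0.266. Each of the 10 had a mean of at most 0.266 in NA1b, and higher levels in NA3 and in Ach1 of replicate 4. The r was taken over profiles of several subtypes, so it includes this difference between subtypes. Whether these genes follow the 8 within a subtype was not tested. Profiles of 1 mouse share a library, and no test was made.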

How the data were processed

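The authors deposited natural log values, ln(1 + UMIs per 10000), made with Seurat, for neurons that they clustered and named. Reads were aligned with Cell Ranger 2.1.1 per the submitters' processing notes. The authors filtered cells on genes, UMIs and mitochondrial RNA, and the deposited neurons hold 514 to 5520 genes and 679 to 19949 UMIs. No step that removes doublets is named, and none was applied here. Other cells of the ganglia were not analysed here.

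UMIs were recovered by dividing each neuron's values by its smallest step, and 100% of nonzero values came within 0.01 of a whole number, with 88.0% of values at 0. Profiles were fitted with limma 3.58.1 in R 4.3.3, with an intensity trend and Benjamini-Hochberg adjustment. Profiles from the same mouse were paired, as they share an animal. The fit was checked on simulated data. Nothing says that mice were dissociated separately, so p-values measure the spread between libraries. Two-sided exact tests, exact Clopper-Pearson and Poisson intervals (counting error only) and correlations were computed in Python 3.11.15 with SciPy 1.17.1.

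The 8 transcripts and all lists were chosen with earlier results of these data known. Named genes are the 8, in each list up to 3 called genes with the largest difference between NA3 and NA1b, and the 10 genes most like the mean of the 8. One gene that this rule names is not reported here. Alternatives covered the pseudocount, filter, minimum of neurons, thinning to 2000 UMIs, averaging, centring, the block, depth and each mouse. Leaving out neurons of shared barcodes was added after seeing the data.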

Additional observations from a re-analysis of the deposited data

Results flagged for a closer look

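In 7 of 40 groups of 5 mice, 1 mouse lay far from the others by Dixon's ratio. Chance flags about 1 in 20 where values are normal. Several of the flagged groups had mice at exactly 0, so the 7 cannot be set against that rate. Gpm6b was 1.47 UMIs per 10000 in NA1b of replicate 1 against 0.0254 to 0.434 in the other mice, and 2.57 in NA2 of replicate 2 against 0 to 0.273. Ptn was 0.257 in NA1c of replicate 4 against 0.735 to 0.841. Ednrb was 0.231 in NA1a of replicate 5, 0.236 in NA1b of replicate 2 and 0.0385 in NA2 of replicate 3, and Sox10 was 0.113 in NA2 of replicate 4, all levels near 0. No value of NA3 stood apart in this way.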

How the results depend on the processing

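All 32 differences of NA3 kept their direction and their call in each alternative in which the gene was tested. Their range, leaving aside averaged natural logs, was 4.37 to 6.44 for Apoe and 0.92 to 3.91 for Sox10, which was not tested with a filter at 1, after thinning or without replicate 1. Centring on the median gene moved the split of calls, from 558 higher and 842 lower against NA1b to 664 and 625, from 685 and 972 against NA1c to 814 and 696, and from 1352 and 1072 against NA2 to 1125 and 1384. With averaged natural logs it was 797 and 765 against NA1b and 960 and 643 against NA1c. With no filter it was 1039 and 654 against NA1a (451 and 731), 1168 and 716 against NA1b, 1250 and 804 against NA1c and 2127 and 972 against NA2. Without the deepest neurons it was 340 and 352, 403 and 356, and 441 and 383 against NA1a, NA1b and NA1c, and without replicate 4 it was 406 and 424 against NA1a. Of 41 differences among the other subtypes that did not pass, 56 of 638 recomputed values changed sign. Shares of neurons moved by more than their spread in 69 of 128 recomputed values. Genes called fell without the deepest neurons from 1182, 1400 and 1657 to 692, 759 and 824 against NA1a, NA1b and NA1c. In that setting only replicates 4 and 5 had an NA3 profile. Thinning gave 1252 for NA3 against NA2 (2424), 85 for NA1a against NA1b (256), 122 against NA1c (351), 1652 against NA2 (3005), 51 for NA1b against NA1c (95) and 2189 against NA2 (3483). For NA1a against NA1b, a pseudocount of 1 gave 421, no filter 161, averaged natural logs 566 and leaving out 1 mouse 102 to 207. For NA1a against NA1c, no filter gave 167, natural logs 984 and leaving out 1 mouse 129 to 251. For NA1b against NA1c, a pseudocount of 1 gave 148, summed UMIs 159 and leaving out 1 mouse 61 to 136. A filter at 1 gave 2278 for NA1b and 2390 for NA1c against NA2 (3706).

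Of the 8 transcripts, those called between NA1a and NA1c (1) became 2 after thinning, 3 with summed UMIs, 0 with no filter, natural logs, centring, no replicate block or without the deepest neurons, and 0 to 1 without 1 mouse. Between NA1a and NA2 (1) they became 2 with a pseudocount of 1, 0 with no filter, 5 neurons, thinning, no replicate block or without shared barcodes, and 0 to 1 without 1 mouse. Between NA1b and NA2 (1) they became 2 with a pseudocount of 1, a filter at 1, centring or without the deepest neurons, 0 without shared barcodes and 1 to 2 without 1 mouse. Between NA1b and NA1c (0) summed UMIs gave 2. The cause of these changes was not tested. Without the replicate block the Fabp7 call between NA1c and NA2 was lost (adjusted p = 0.0533, limma).

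The median number of transcripts found fell with thinning to 1 in NA1a, NA1b, NA2 and Ach2, to 1.5 in NA1c and to 6 in NA3. The mean correlation was 0.123 (Spearman) and 0.101 (thinned) in NA1a, 0.105, 0.217 and 0.0676 (centred on the mouse) in Ach1, 0.166 and 0.124 in Ach2, and 0.0495, 0.00639 and 0.0268 in Glut.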
